A study of Mus musculus with 6 samples.

Results

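The interleukin-1 (IL-1) family genes followed here are the agonists Il1a, Il1b, Il18 and Il33, the receptor antagonist Il1rn, the receptor chains Il1r1, Il1rap, Il1r2 and Il1rl1, and the inflammasome sensor Nlrp3. They were selected by name, as the rows whose Ensembl gene ID carries one of these symbols in the mouse GRCm38 annotation, and all 10 were found among the 54532 gene IDs measured. RNAseq values of NeuT/ATTAC mammary tumors were compared between 3 tumors from mice given IgG and 3 from mice given anti-PD-1 mAb, which blocks the PD-1 inhibitory receptor of T cells.

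Both groups carried the same alleles: MMTV-NeuT (FVB-Tg(MMTV-Erbb2)NK1Mul/J), in which the MMTV promoter expresses Erbb2 in mammary epithelium, and FAT-ATTAC, which came on a C57BL/6 background and had been crossed into FVB. All mice were injected from 6 weeks of age with AP20187 at 0.4 mg/kg, biweekly by the labels and triweekly by the paper, and this drug activates the FAT-ATTAC transgene, removes mammary fat and leaves fibrosis. From 8 weeks of age, the antibody (100 μg of IgG or of anti-PD-1 mAb) was injected 2 times per week. Every tumor therefore came from a mouse that carried the Erbb2 transgene and was given the drug that induces fibrosis. The fibrosis of each tumor was not measured here, and no mice without AP20187 were analysed. The labels give 3 separate tumors per group, whereas the paper says that RNA was pooled within each group, so that the p-values measure the spread between these 6 samples, whatever it came from.

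Levels are FPKM, fragment counts scaled by the exon length of the gene and by library size, and so can be compared between tumors. Comparisons between genes also rest on the exon length used for each, which may exceed that of the transcripts present. The reads recovered behind the FPKM came to between 21320856 and 24164478 per tumor. Epcam, an epithelial surface protein, lay between 690 and 1150 FPKM and so marked all 6 samples as epithelial tumors. In bulk tumors, fewer cells of a type and less RNA per cell cannot be told apart.

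IL-1 family cytokines are alarm signals. IL-1α and IL-1β act on the same receptor, formed by the ligand-binding chain Il1r1 and the shared chain Il1rap, which recruits MyD88 and IRAK kinases and activates NF-κB. Il1rn occupies Il1r1 without signaling, and Il1r2 is a decoy that binds the ligand but lacks a signaling domain. IL-1β and IL-18 are made as precursors that caspase-1 cleaves inside inflammasomes such as the one built on Nlrp3, whereas IL-33 is a nuclear protein that is released from damaged cells and binds Il1rl1 (ST2) together with Il1rap.

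Sequence upstream of 4 of these genes is given because they are the agonists and the antagonist whose levels and ratios are compared. They are Il1a and Il1b, neighbors on chromosome 2 with 54597 bases between them, Il1rn and Il33. For Il1rn the most upstream start is shown, and for Il33 the downstream start, which lies inside the gene. Each sequence is the 250 bases before a RefSeq start site on GRCm38.p6, written 5′ to 3′ on the strand of the gene. Capitals mark matches to TATAAA, to the AP-1 letters TGANTCA or to the C/EBP letters TTGCNNAA.
Il1a (chr2:129309973-129310222, minus strand): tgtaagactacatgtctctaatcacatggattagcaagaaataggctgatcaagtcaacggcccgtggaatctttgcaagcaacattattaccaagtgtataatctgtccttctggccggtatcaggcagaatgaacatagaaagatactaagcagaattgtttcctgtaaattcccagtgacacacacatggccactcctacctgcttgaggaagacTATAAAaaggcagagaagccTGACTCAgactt
Il1b (chr2:129371140-129371389, minus strand): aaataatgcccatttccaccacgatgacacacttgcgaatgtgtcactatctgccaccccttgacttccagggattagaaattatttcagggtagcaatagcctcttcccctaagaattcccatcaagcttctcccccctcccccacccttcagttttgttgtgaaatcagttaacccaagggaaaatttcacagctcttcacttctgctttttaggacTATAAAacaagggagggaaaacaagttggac
Il1rn (chr2:24336610-24336859, plus strand): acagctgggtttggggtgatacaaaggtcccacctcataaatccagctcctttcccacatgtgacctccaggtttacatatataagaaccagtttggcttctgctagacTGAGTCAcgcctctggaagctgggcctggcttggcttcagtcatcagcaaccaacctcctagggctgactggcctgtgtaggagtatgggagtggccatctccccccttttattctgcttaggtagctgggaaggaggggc
Il33 (chr19:29945540-29945789, plus strand): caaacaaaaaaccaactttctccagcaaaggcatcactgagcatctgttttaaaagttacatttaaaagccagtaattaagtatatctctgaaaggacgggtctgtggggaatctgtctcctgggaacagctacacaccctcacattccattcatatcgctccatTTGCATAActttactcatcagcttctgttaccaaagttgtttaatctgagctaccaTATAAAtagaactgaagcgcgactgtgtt

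All 10 genes had an entry in the RefSeq promoter table, and with Il18r1 and Il18rap, the genes of the IL-18 receptor chains, they gave 20 windows of 250 bases before to 50 after a start site. TATAAA beginning between positions -35 and -25 on the gene strand, where a TATA box usually sits, occurred in 3 of these windows, which are those of Il1a (position -32), Il1b (position -31) and the downstream start of Il33 (position -29), and in 1.75% of 32851 mouse windows. TGANTCA, searched on both strands like the motifs that follow, was found in 2 of the 20 windows and in 7.81% of all windows. The 2 matches were at position -12 of Il1a and position -141 of the most upstream Il1rn start. The downstream Il1rn starts had none. TTGCNNAA was found in 3 of the 20 and in 10.8% of all. An NF-κB motif of 10 letters was in 0 of the 20 and in 1.2% of all, which says only that its letters are not in these windows. A match is a run of letters and not a shown binding site.

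The receptor chain Il1rap was the most abundant of the 10 genes in each of the 6 tumors, and the agonists Il1b and Il33 followed at close to 4 FPKM. Mean FPKM over the 6 tumors fell from 13.3 for Il1rap to 3.79 for Il1b, 3.76 for Il33, 2.64 for Il1r1, 2.60 for Il18 and 1.62 for Il1rn. Il1a (0.659 FPKM), Il1r2 (0.330 FPKM), Nlrp3 (0.288 FPKM) and Il1rl1 (0.131 FPKM) were lower. Reads of a gene on the opposite strand cannot be told apart from those of Il1a, Il1b, Il1r2, Il1rap and Il18, which overlap such genes, because the sources used here do not say whether strand was used in counting. Against the 15069 genes with a mean of at least 0.5 FPKM, Il1rap lay above 73.1% of genes, Il1b above 39.9%, Il33 above 39.8% and Il1a above 5.59%.

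Neighbors in this order were compared within tumors by exact sign-flip permutation tests on log2(FPKM + 0.1), two-sided, adjusted over the 9 neighboring pairs, with 0.03125 the smallest p that 6 tumors allow. The order was itself taken from the mean FPKM of these 6 tumors, so that the tests are no independent support for it. Il1rap was above Il1b, Il18 above Il1rn and Il1a above Il1r2 in 6 of 6 tumors, each with that smallest exact p and an adjusted p of 0.0938. The first of these gaps measured 1.88 ± 0.52 on the log2 scale (SD, n = 6), the second 0.94 ± 0.93 and the third 0.77 ± 0.66. No step of this order was thus past 0.05 after adjustment. Il1b and Il33 changed places between tumors (Il1b higher in 3 of 6), and so did Il1r1 and Il18 (Il1r1 higher in 3 of 6), with exact permutation p-values of 0.906 and 0.813.

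**Figure D1:**
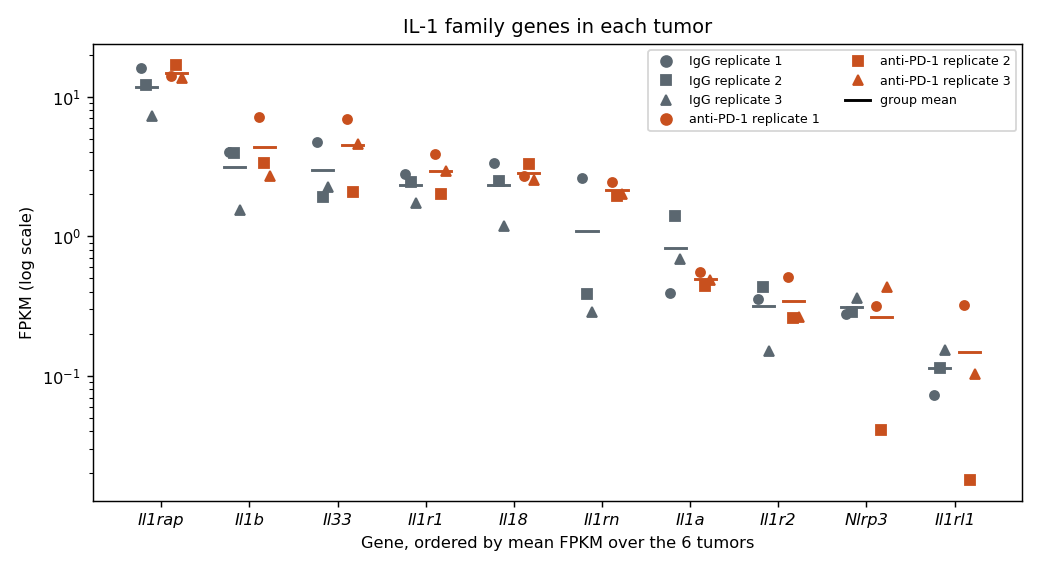
FPKM of the 10 IL-1 family genes on a log axis, with 1 point per tumor (gray, IgG; orange, anti-PD-1; the marker shape gives the replicate) and a bar for the mean of each group. The genes fall from a mean of 13.3 FPKM for Il1rap to 0.131 for Il1rl1, and the gray and orange points overlap for each gene.

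Anti-PD-1 and IgG tumors overlapped for all 10 genes. Of the 7 genes with enough expression to be tested (mean FPKM of at least 0.5), 0 passed an adjusted p of 0.05 in limma, as did 0 of the 15069 genes tested (0.0%). At an unadjusted p of 0.05, 0 of the 7 passed, against 12.3% of all genes, and 0 of the 7 had separate groups, against 18.1% of all genes (9.1% separate and higher, 8.99% separate and lower). By voom on recovered reads 1 of the 7 (Il1rn) passed the unadjusted threshold and 0 the adjusted one. Means were higher with anti-PD-1 for 6 of the 7, against 50.8% of all genes, and the median log2 fold change of the 7 was 0.36, against 0.0072 over all genes. Fold changes below are of log2(FPKM + 1), anti-PD-1 minus IgG, and this scale understates changes of genes at low FPKM.

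Among the agonists, Il1b (chr2:129364570-129371139), the inducible cytokine of myeloid cells, measured 4.00 FPKM in IgG replicate 1, 3.95 in replicate 2 and 1.55 in replicate 3, and 7.17, 3.35 and 2.69 FPKM in the anti-PD-1 replicates in the same order, which is kept throughout. The highest tumor was anti-PD-1 replicate 1 and the lowest IgG replicate 3, and of the other 4 tumors both IgG tumors lay above both anti-PD-1 tumors, against the direction of the means. Gene coordinates follow GENCODE release M21 (GRCm38). The means were 3.17 ± 1.4 and 4.41 ± 2.42 FPKM (SD, n = 3 per group), a log2 fold change of 0.36 with a 95% interval of -0.54 to 1.26 (limma adjusted p = 0.731). This difference rested on anti-PD-1 replicate 1, without which it was 0.012, and on IgG replicate 3, without which it was 0.033.

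Il1a (chr2:129299610-129309972), the agonist that is active without cleavage and is stored in epithelial cells, stood at 0.391, 1.39 and 0.685 FPKM in the IgG tumors and at 0.554, 0.439 and 0.491 FPKM in the anti-PD-1 tumors. IgG replicate 1 was the lowest and IgG replicate 2 the highest of all 6, so that the anti-PD-1 tumors lay inside the IgG range. Between 17 and 66 reads lay behind each value. The log2 fold change was -0.25 with a 95% interval of -0.84 to 0.35 (limma adjusted p = 0.714). Without IgG replicate 2 it was -0.033, and without IgG replicate 1 it was -0.42.

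Il33 (chr19:29925114-29960718), the nuclear alarmin, measured 4.75, 1.91 and 2.24 FPKM with IgG and 6.96, 2.09 and 4.60 FPKM with anti-PD-1. Each group held both high and low tumors, with means of 2.97 ± 1.56 and 4.55 ± 2.44 FPKM (SD, n = 3 per group). This gave a log2 fold change of 0.45 with a 95% interval of -0.49 to 1.39 (limma adjusted p = 0.666). It was 0.14 without anti-PD-1 replicate 1 and 0.82 without anti-PD-1 replicate 2.

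The levels of Il33 and of a list of 10 fibroblast markers (Pdgfra, Pdgfrb, Col1a1, Col1a2, Col3a1, Dcn, Lum, Dpt, Fap and Postn) put the 6 tumors in the same order. Summed, the markers came to 300.0, 104 and 135 FPKM in the IgG tumors and to 407, 115 and 254 FPKM in the anti-PD-1 tumors. Il33 as a percent of this sum was 1.58, 1.83 and 1.67 with IgG and 1.71, 1.81 and 1.81 with anti-PD-1. The highest tumor was thus 3.65 times the lowest for Il33 and 1.16 times the lowest for Il33 relative to the fibroblast markers. Among 12 marker lists the fibroblast list left Il33 with the narrowest span, and the next narrowest, the endothelial list, left it at 3.25 times. This comparison was chosen after the values were seen, is over 6 tumors that share their libraries, and is given without a test. The genes with the profile most like that of Il33 across the 6 tumors were Sparc and Rarres2 (root-mean-square difference of 0.10 on the log2 scale each) and Ctsk (0.14).

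**Figure D2:**
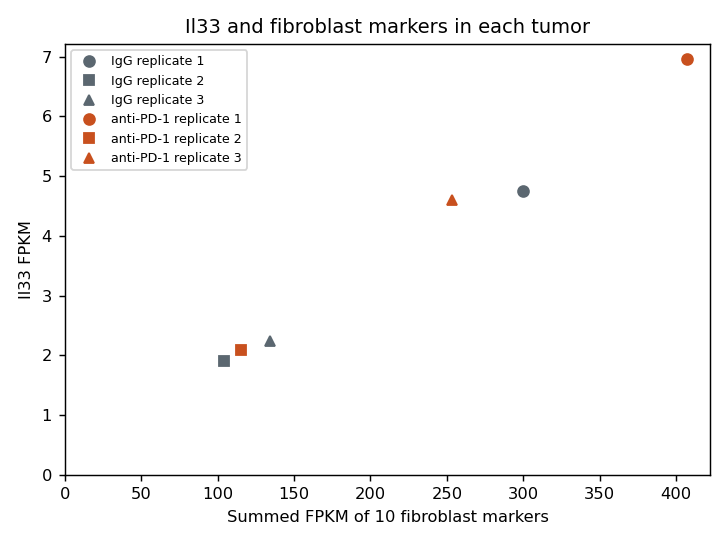
FPKM of Il33 (vertical axis) against the summed FPKM of 10 fibroblast markers (horizontal axis), with 1 point per tumor (gray, IgG; orange, anti-PD-1). Il33 goes from 1.91 FPKM at a marker sum of 104 to 6.96 FPKM at a sum of 407, and both groups hold low and high tumors.

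Il18 (chr9:50554827-50581840), the cytokine that primes NK and T cells for interferon-γ production, was at 3.35, 2.51 and 1.19 FPKM with IgG and at 2.73, 3.28 and 2.53 FPKM with anti-PD-1. IgG replicate 3 was low and the other 5 tumors lay close together, with the highest value in IgG replicate 1. The values came from 30 to 82 reads, and Tex12 and Bco2 on the opposite strand overlap Il18. Between the groups Il18 gave a log2 fold change of 0.25 with a 95% interval of -0.38 to 0.89 (limma adjusted p = 0.728), and -0.023 without IgG replicate 3. Il18 lies on chromosome 9, where the median log2 fold change of 798 tested genes was -0.36 and 82.3% of genes were lower with anti-PD-1, and relative to that median the value for Il18 was 0.61.

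The antagonist Il1rn (chr2:24336853-24351494) had the largest log2 fold change of the 7 tested genes. It measured 2.63, 0.384 and 0.289 FPKM with IgG and 2.47, 1.95 and 2.02 FPKM with anti-PD-1. IgG replicates 2 and 3 were lower than every anti-PD-1 tumor, but IgG replicate 1 was the highest of all 6. Means were 1.10 ± 1.32 FPKM with IgG and 2.15 ± 0.281 FPKM with anti-PD-1 (SD, n = 3 per group). The log2 fold change was 0.75 with a 95% interval of -0.18 to 1.69 (limma adjusted p = 0.473), and by voom on recovered reads it was 1.72 (past an unadjusted p of 0.05, adjusted p = 0.357). The size of this difference changed with the IgG tumors: it was 1.23 without replicate 1 (limma adjusted p = 0.10), 0.54 without replicate 2 (limma adjusted p = 0.821) and 0.49 without replicate 3 (limma adjusted p = 0.680). Across the 6 tumors the profile most like that of Il1rn was that of Ccn2, a matricellular protein (root-mean-square difference of 0.07), followed by Rem2 (0.11) and Arnt2 (0.12).

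Il1r1 (chr1:40225080-40317257), the signaling receptor of IL-1α and IL-1β, was at 2.78, 2.46 and 1.74 FPKM with IgG and at 3.87, 2.02 and 2.96 FPKM with anti-PD-1. The groups overlapped throughout, with the lowest value in IgG replicate 3 and the highest in anti-PD-1 replicate 1. The log2 fold change was 0.24 with a 95% interval of -0.32 to 0.79 (limma adjusted p = 0.710). It was 0.070 without anti-PD-1 replicate 1 and 0.42 without anti-PD-1 replicate 2.

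Il1rap (chr16:26581704-26730117), the chain shared by the receptors of IL-1, IL-33 and IL-36, measured 16.0, 12.1 and 7.24 FPKM with IgG and 14.1, 17.0 and 13.6 FPKM with anti-PD-1. With 2007 to 4679 reads per tumor it was the gene measured with the most reads among the 10. IgG replicates 2 and 3 were below the anti-PD-1 tumors and IgG replicate 1 was among them. Il1rap gave a log2 fold change of 0.37 with a 95% interval of -0.27 to 1.01 (limma adjusted p = 0.602). It was 0.09 without IgG replicate 3 and 0.61 without IgG replicate 1 (limma adjusted p = 0.274). Il18 was the gene with the profile most like that of Il1rap (root-mean-square difference of 0.07), and Il1rap was the third most like Il18, after Psmb3 and Ndufa2.

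**Figure D3:**
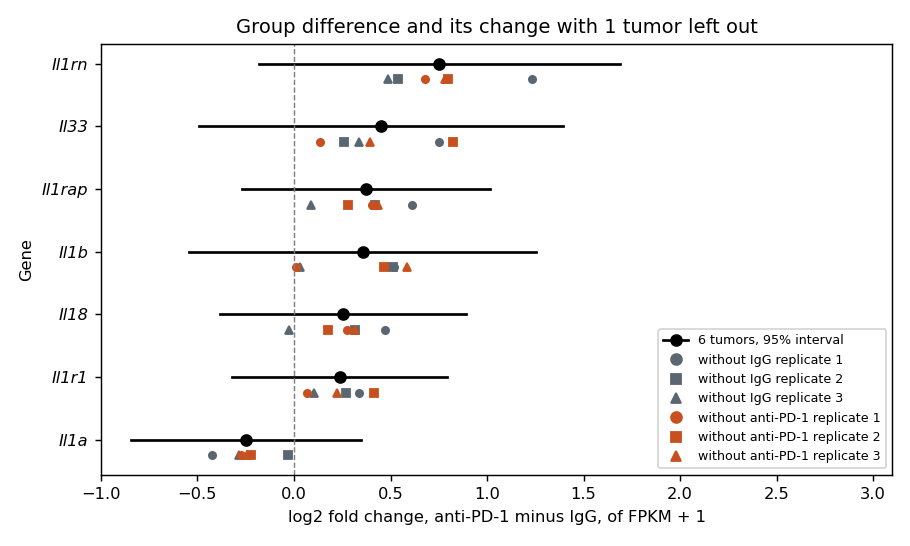
Log2 fold change of FPKM + 1 (anti-PD-1 minus IgG) of the 7 tested IL-1 family genes, with the 95% interval of the 6-tumor fit as a line (black) and the value with each tumor left out as a small marker below it (gray, an IgG tumor left out; orange, an anti-PD-1 tumor left out). All 7 intervals include 0, the value for Il1rn is 0.49 when IgG replicate 3 is left out and 1.23 when replicate 1 is, and that for Il18 falls to -0.023 without IgG replicate 3.

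The decoy receptor Il1r2 (chr1:40074079-40125231), the IL-33 receptor Il1rl1 (chr1:40429570-40465415) and Nlrp3 (chr11:59541568-59566956) were below the 0.5 FPKM needed for the test. Il1r2 measured 0.357, 0.437 and 0.150 FPKM with IgG and 0.512, 0.259 and 0.265 FPKM with anti-PD-1, on 7 to 25 reads. Il1rl1 measured 0.0725, 0.115 and 0.155 FPKM with IgG and 0.323, 0.0179 and 0.104 FPKM with anti-PD-1, on 3 to 57 reads. The spread among the anti-PD-1 tumors was wider than the difference of the groups for Il1rl1, with both its highest and its lowest tumor there. Nlrp3 measured 0.280, 0.288 and 0.364 FPKM with IgG and 0.318, 0.0407 and 0.436 FPKM with anti-PD-1, on 4 to 42 reads, and anti-PD-1 replicate 2 was the low tumor for both Nlrp3 and Il1rl1. Each of these 3 genes gave an exact permutation p of 0.9 (two-sided, 3 tumors against 3, smallest possible p 0.1), so that no difference could be shown for them.

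Ratios within a tumor compare an inhibitor with its target, or a ligand with its partner, and leave out what scales both genes alike. Il1rn relative to Il1b was 0.656, 0.0971 and 0.187 with IgG and 0.345, 0.582 and 0.751 with anti-PD-1. By FPKM the antagonist was thus below its agonist in all 6 tumors, and IgG replicates 2 and 3 had the lowest ratios. This order rests on exon lengths of 5535 bases for Il1rn and 1907 for Il1b. In recovered reads Il1rn was below Il1b only in IgG replicates 2 (51 against 181) and 3 (39 against 72). It was equal in anti-PD-1 replicate 1 (350 each). It was above in IgG replicate 1 (320 against 168) and anti-PD-1 replicates 2 (262 against 155) and 3 (266 against 122). The log2 ratio was higher by 1.03 with anti-PD-1 (exact permutation p = 0.3, two-sided, where 3 tumors against 3 cannot give a p under 0.1), by 0.45 without IgG replicate 2 and by 1.69 without IgG replicate 1. It was higher by 0.40 when 1 in place of 0.1 was added to each FPKM. Il1a relative to Il1b was 0.0978, 0.352 and 0.443 with IgG and 0.0773, 0.131 and 0.182 with anti-PD-1, a difference of -0.94 on the log2 scale (exact permutation p = 0.3). Leaving out IgG replicate 1 gave -1.54, leaving out IgG replicate 3 gave -0.55, and leaving out anti-PD-1 replicate 1 gave -0.60, as did adding 1 in place of 0.1. The groups overlapped here because IgG replicate 1 lay with the anti-PD-1 tumors.

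The decoy Il1r2 stayed between 0.0865 and 0.178 of the level of Il1r1 in all 6 tumors, and its log2 ratio differed by -0.18 between the groups (exact permutation p = 0.5). That difference was -0.0068 when IgG replicate 2 was left out and -0.32 when replicate 3 was, and of the anti-PD-1 tumors leaving out replicate 3 gave -0.032 and replicate 2 gave -0.29. Il33 was at 14.5 to 65.6 times the level of its receptor Il1rl1 with IgG and at 21.5 to 116 times with anti-PD-1, a log2 difference of 0.52 (exact permutation p = 0.4) that was computed with 0.1 added to each FPKM. It was 1.05 without IgG replicate 1, 0.26 without IgG replicate 2, 0.25 without IgG replicate 3, and 0.80 with 0.01 added in place of 0.1. The adjusted p was 0.5 for each of the 4 ratios, a test that this number of tumors could not pass, and the groups overlapped in each.

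**Figure D4:**
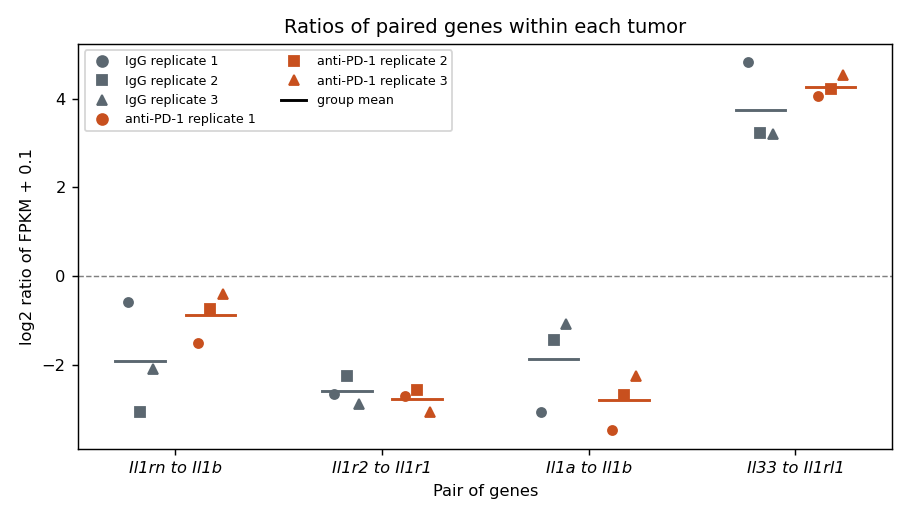
Log2 ratio of FPKM + 0.1 for 4 pairs of genes within each tumor, with 1 point per tumor (gray, IgG; orange, anti-PD-1) and a bar for the mean of each group. Il1rn is below Il1b, Il1r2 below Il1r1 and Il1a below Il1b in all 6 tumors, Il33 is above Il1rl1 in all 6, and the groups overlap in each pair.

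Il18r1, a receptor chain of IL-18, had separate groups, and Il18 itself had overlapping ones. In a list of 12 further ligands, receptors and binding proteins, 5 were tested, 2 were higher with anti-PD-1 at an unadjusted p of 0.05 (Il18r1 and Il18rap), 0 were lower, and the median log2 fold change was 0.10. Over all genes 6.22% were higher and 6.05% lower by this rule, which is used for the lists that follow too, and 0 genes of any list passed an adjusted p of 0.05. Il18r1, the IL-18-binding chain, measured 5.80, 2.94 and 0.961 FPKM with IgG and 9.08, 19.6 and 18.7 FPKM with anti-PD-1. The groups did not overlap, and the means were 3.23 ± 2.43 and 15.8 ± 5.85 FPKM (SD, n = 3 per group). The log2 fold change of 2.10 (SE 0.48, limma adjusted p = 0.344) did not pass the adjusted threshold, was between 1.63 and 2.53 with each tumor left out, and kept an unadjusted p under 0.05 each time.

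Il18rap, the accessory chain, measured 0.316, 0.259 and 0.0243 FPKM with IgG and 0.787, 1.08 and 0.761 FPKM with anti-PD-1. It also separated the groups, with a log2 fold change of 0.65 (SE 0.22, limma adjusted p = 0.355), but reached the 0.5 FPKM needed for the test only through the anti-PD-1 tumors, so that its call is no support for a difference. Without IgG replicate 3 it no longer passed the unadjusted threshold. The genes are neighbors on chromosome 1, with 136 bases between the end of Il1rl1 and the start of Il18r1 (chr1:40465552-40500854) and 14507 between Il18r1 and Il18rap (chr1:40515362-40551705) on GRCm38. Il1rl1, the gene next to Il18r1, had both its highest and its lowest level among the anti-PD-1 tumors.

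T and NK cells are the usual carriers of the IL-18 receptor, and 10 of their markers were low in these tumors. Summed, they came to between 2.60 and 6.74 FPKM with IgG and between 1.80 and 2.81 FPKM with anti-PD-1. Cd3e was at 0.0334, 0.306 and 0.251 FPKM with IgG and at 0.0670, 0 and 0.0103 FPKM with anti-PD-1, where Il18r1 was high. The carrier of Il18r1 in these tumors was not tested. Il18bp, which binds and neutralizes secreted IL-18, ranged from 6.08 to 8.17 FPKM with IgG and from 3.54 to 11.3 FPKM with anti-PD-1 (log2 fold change -0.16, limma adjusted p = 0.880). Its direction turned on 1 tumor, with -0.57 when anti-PD-1 replicate 2 was left out and 0.15 when replicate 1 was. Il18bp was more abundant than Il18 in all 6 tumors, but it overlaps Numa1 on the opposite strand, whose reads cannot be told apart here.

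In the inflammasome and processing list of 22 genes, 15 were tested, 1 was higher (Casp8), 2 were lower (Casp1 and Casp4) and the median log2 fold change was -0.22. Casp1, the protease that matures IL-1β and IL-18, measured 72.1, 149 and 100.4 FPKM with IgG and 46.7, 50.8 and 41.8 FPKM with anti-PD-1. Every anti-PD-1 tumor was below every IgG tumor, with a log2 fold change of -1.13 (SE 0.27, limma adjusted p = 0.344). Casp4, the sensor of intracellular lipopolysaccharide and neighbor of Casp1 on chromosome 9, measured 11.5, 26.2 and 15.8 FPKM with IgG and 5.72, 4.75 and 3.64 FPKM with anti-PD-1. It too separated the groups, with a log2 fold change of -1.66 (SE 0.30, limma adjusted p = 0.344).

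Both caspase genes share the low median of chromosome 9, given above for Il18, and relative to it the differences were -0.77 for Casp1 and -1.30 for Casp4. With each tumor left out, Casp1 stayed between -1.38 and -0.86 and Casp4 between -1.91 and -1.35, with an unadjusted p under 0.05 in each of the 6 fits for both. Casp8, a caspase of cell death that can also process IL-1β, had a log2 fold change of 0.48 (limma adjusted p = 0.387) and kept an unadjusted p under 0.05 in 2 of the 6 fits with a tumor left out. The adaptor Pycard and the pore protein Gsdmd gave log2 fold changes of -0.13 (limma adjusted p = 0.809) and -0.09 (limma adjusted p = 0.882), and both changed sign with 1 tumor left out.

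**Figure D5:**
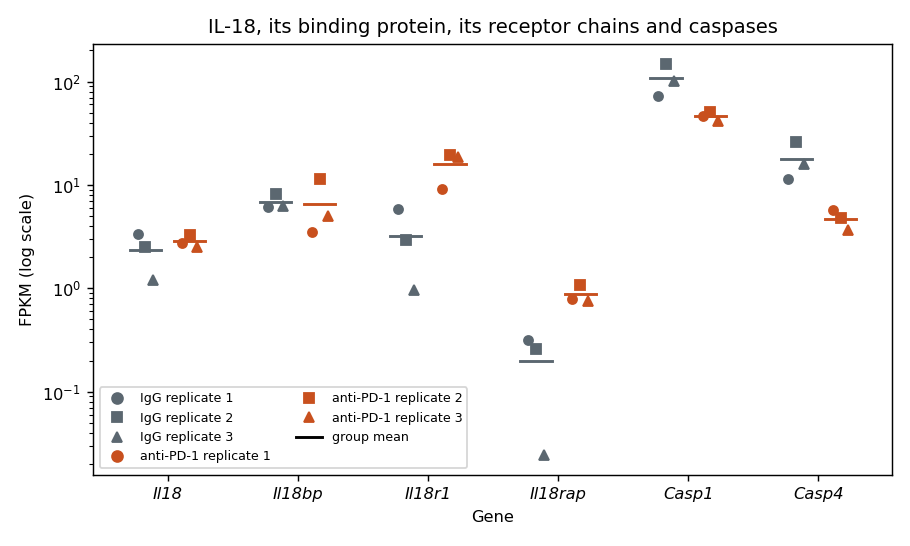
FPKM on a log axis of Il18, its binding protein Il18bp, its receptor chains Il18r1 and Il18rap, and the caspases Casp1 and Casp4, with 1 point per tumor (gray, IgG; orange, anti-PD-1) and a bar for the mean of each group. The receptor chains are higher and the caspases lower in all 3 anti-PD-1 tumors than in any IgG tumor, while Il18 and Il18bp overlap.

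Downstream of the receptors, the 22 signaling genes were all tested, and 2 were higher, 3 were lower and 17 did not pass, with a median log2 fold change of -0.04. The higher genes were Nfkb2 and Nfkbiz, and the groups did not overlap for either. Nfkb2, the precursor of the p52 subunit, measured 17.4, 10.8 and 9.87 FPKM with IgG and 19.5, 23.7 and 20.8 FPKM with anti-PD-1 (log2 fold change 0.75, limma adjusted p = 0.349). Nfkbiz, a nuclear IκB induced by IL-1, measured 9.39, 6.90 and 6.18 FPKM with IgG and 10.1, 14.7 and 14.9 FPKM with anti-PD-1 (log2 fold change 0.74, limma adjusted p = 0.344).

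Irak2, Irak3 and Map3k7 were the lower genes of this list. Irak2, a kinase of the MyD88 complex, measured 11.1, 12.5 and 10.4 FPKM with IgG and 7.0, 8.22 and 7.56 FPKM with anti-PD-1 (log2 fold change -0.51, limma adjusted p = 0.344). Irak3, which restrains that complex, overlapped between the groups (log2 fold change -0.51, limma adjusted p = 0.406), and its unadjusted p stayed under 0.05 in 1 of the 6 fits with a tumor left out. Map3k7 (TAK1) had a log2 fold change of -0.65 (limma adjusted p = 0.369), of which -0.25 remained after the median of chromosome 4 was taken off, and likewise held in 1 of the 6. Nfkb2, Nfkbiz and Irak2 held in 6 of the 6.

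Of 20 genes known to be induced by IL-1, 12 were tested, 1 was higher (Cxcl5), 0 were lower, and the median log2 fold change was 0.04. Cxcl5, a neutrophil-attracting chemokine, measured 0.219, 0.470 and 0.0880 FPKM with IgG and 1.87, 0.575 and 1.58 FPKM with anti-PD-1 (log2 fold change 0.86, limma adjusted p = 0.355). It came from 4 to 89 reads per tumor and passed the filter only through the anti-PD-1 tumors, so that its call, the only one of the list, is no support for a difference. It held the unadjusted threshold in 3 of the 6 fits with a tumor left out. Cxcl1, a chemokine of the same receptor, gave 0.71 (limma adjusted p = 0.559) and 0.14 without IgG replicate 3, and Lcn2, the most abundant of the list, gave 1.08 (limma adjusted p = 0.434).

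Among genes linked to IL-18 and IL-33 responses, Gzmb and Gata3 were lower with anti-PD-1, and the groups did not overlap for either. Gzmb, a cytotoxic protease of NK and T cells, measured 1.58, 4.87 and 2.31 FPKM with IgG and 0.599, 0 and 0.528 FPKM with anti-PD-1 (log2 fold change -1.45, limma adjusted p = 0.344). Gzmb reached the 0.5 FPKM needed for the test only through the IgG tumors, where it was high, so that its call is no support for a difference. Gata3 (-0.65, limma adjusted p = 0.344) is also a luminal mammary transcription factor and lay between 29.0 and 57.6 FPKM.

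Markers of the cells that usually make these cytokines were read in the same tumors, and the summed level of each of the 12 lists overlapped between the groups except that of the luminal list. The 10 neutrophil markers summed to between 2.97 and 12.7 FPKM with IgG and between 6.29 and 26.0 FPKM with anti-PD-1, and 0 of the 3 tested passed the unadjusted threshold. Ly6g, a neutrophil surface protein, was at 0 in the 3 IgG tumors and at 0.0415, 0.306 and 0 FPKM in the anti-PD-1 tumors. S100a9 of this list had the third most similar profile to Il1b (root-mean-square difference of 0.18), after Pdlim7 (0.10) and Neurl3 (0.16). The list as a whole did not follow Il1b: relative to the neutrophil sum, Il1b spanned 5.12 times between tumors, wider than Il1b itself (4.64 times). The 15 macrophage and monocyte markers summed to between 438 and 942 FPKM with IgG and between 636 and 952 FPKM with anti-PD-1, and 1 of the 14 tested was higher (Cd68, log2 fold change 0.76, limma adjusted p = 0.344). A log2 fold change above 0 was seen for 12 of the 14, with a median of 0.31, beside 6 of 7 and 0.36 for the IL-1 family genes. Il1b relative to the macrophage sum spanned 2.62 times between the lowest and the highest tumor, against 4.64 times for Il1b itself. Of the 12 lists the macrophage list gave the narrowest span for Il1b, and also for Il1r1 (1.56 times), Il1r2 (1.90 times) and Il18 (1.94 times). For Il18 the luminal list was next at 2.06 times, and Il1r2 rests on 7 to 25 reads. Il1rap, the most abundant of the 10 genes, was narrowest by the luminal list (1.66 times, against 2.08 times by the macrophage list). This was looked at after the values were seen and carries no test. The 8 luminal markers summed to between 2208 and 3019 FPKM with IgG and between 3041 and 3986 FPKM with anti-PD-1, and 5 of the 8 had a log2 fold change above 0. The one past the unadjusted threshold, Krt19, was lower with anti-PD-1 (log2 fold change -2.03, limma adjusted p = 0.404), by -0.96 without IgG replicate 2. In the other marker lists, Tpsab1 of mast cells (0.92, limma adjusted p = 0.355) and the squamous gene Dsg3 (1.43, limma adjusted p = 0.344) were higher and the basal keratin Krt17 (-0.66, limma adjusted p = 0.370) was lower at the unadjusted threshold, where Tpsab1 and Krt17 reached 0.5 FPKM only through the group in which they were high. The part of these cells in the levels of the IL-1 family genes was not tested.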

How the data were processed

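RNAseq values of 6 mammary tumors (3 IgG, 3 anti-PD-1) were analyzed, with groups and replicate numbers from the sample labels. By the submitters' processing notes, the authors used FastQC 0.11.9, cutadapt 3.5, Bowtie2 2.4.1, RSEM 1.3.1 and DESeq2 1.36.0 on mm10. The values the authors deposited are FPKM per Ensembl gene ID, scaled by exon length and library size, and the sources used here do not say how that FPKM was made. Of 54532 IDs, 54495 matched GENCODE release M21 (GRCm38) and 37 did not. Multiplied by merged exon length, 97.0% to 97.3% of the detected values of each tumor fell within 0.1 of whole reads, from which reads per gene and depth were recovered. These reads need not equal the counts from RSEM.

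After division by median-of-ratios factors (1.00 to 1.01), log2(FPKM + 1) of the 15069 genes averaging 0.5 FPKM or more was tested in limma 3.58.1 under R 4.3.3 (eBayes with trend, two-sided, Benjamini-Hochberg adjustment over these genes). Ratios and levels of the IL-1 family genes were compared by exact permutation tests. The IL-1 family genes and the pathway and marker lists were chosen with earlier results of these data known. The rule for naming genes took the IL-1 family genes, the genes of a list with an unadjusted p under 0.05 or among its 2 most abundant, markers at 0, and the 3 protein-coding genes closest in profile to each tested member. Several of the abundant genes, of the markers at 0 and of the close profiles that met it are not named, for room. Epcam, Cd3e, Ly6g, Il18bp, Pycard, Gsdmd and the fibroblast markers were named after their values were seen. Some genes of the list linked to IL-18 and IL-33 responses, and the counts over that list, are not reported here. Upstream sequences came from RefSeq (GRCm38.p6). In simulated data for this comparison over 14386 genes, 179 of 200 genes changed by a log2 fold of 2 (89.5%) were recovered, with 12 false calls. The simulation gave every gene the same dispersion (0.0567) and no outlying tumor. Its share recovered is therefore no estimate for genes that vary more between these tumors.

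The alternatives were 0.1 in place of 1, no filter, a filter at 2 FPKM, unscaled FPKM, quantile normalization, no trend, limma voom with TMM factors on recovered reads, the chromosome median taken off, a replicate block, and each tumor left out. Tables and figures were made in Python 3.11.15 (pandas 2.3.3, numpy 2.4.6, matplotlib 3.10.9).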

Additional observations from a re-analysis of the deposited data

How the results depend on the processing

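Of the 7 tested IL-1 family genes, Il18 alone changed sign under the alternatives and the left-out tumors. Il18 ran from -0.023 (log2, without IgG replicate 3) to 0.47 with each tumor left out, and the untested Nlrp3 moved to -0.37 with 0.1 added to FPKM. The small differences of the untested genes changed sign: Il1r2 (0.035) to -0.058 without IgG replicate 3 (-0.052 with anti-PD-1 replicate 1 left out), Il1rl1 (0.036) to -0.070 without anti-PD-1 replicate 1, and Nlrp3 (-0.062) to 0.072 without anti-PD-1 replicate 2. The genes at an adjusted p under 0.05, 0 of 15069, became 1 by voom on recovered reads and 0 to 12 with each tumor left out (12 without IgG replicate 1). The unadjusted higher genes ran from 507 to 1272 and the lower ones from 454 to 1407 with each tumor left out. The IL-1 family genes at an unadjusted p under 0.05 were 1 by voom (Il1rn) and 0 to 2 with each tumor left out, the 2 being Il1rn and Il1rap without IgG replicate 1. The 4 ratios kept their sign but not their size with each tumor left out, as given with each.

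With the replicate number as a block, 918 genes were higher and 807 lower at an unadjusted p under 0.05, with 0 at an adjusted p under 0.05 and 0 of the IL-1 family genes passing. The tumors share only a number, since the deviations of same-numbered tumors correlated by -0.16, 0.01 and 0.19. Il1a, Il18, Il1r2, Il1rl1 and Nlrp3 rest on fewer than 100 reads per tumor, and the last 3 have no interval.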

Other observations

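Il1rl2, the receptor of the IL-36 cytokines, was expressed in these tumors almost without its ligands. It measured 7.34, 6.59 and 5.56 FPKM with IgG and 8.79, 4.58 and 8.25 FPKM with anti-PD-1, on 757 to 1533 reads, and the groups overlapped (log2 fold change 0.10, limma adjusted p = 0.891), with a value between -0.051 and 0.36 when 1 tumor was left out. The agonist Il36a had 1 read in IgG replicate 1 and 0 in the other 5 tumors. Il36b had 1 read in IgG replicate 3 and 0 elsewhere, and Il36g had 2 reads in IgG replicate 1, 2 in anti-PD-1 replicate 3 and 0 in the others. The antagonist Il36rn was the most read of these ligands, with 10, 9 and 69 reads with IgG and 8, 0 and 17 reads with anti-PD-1. Il1rapl1 and Il1rapl2, the neuronal members of the receptor family, were at 0 in all 6 tumors.

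Il1a, as a percent of the summed FPKM of 10 T and NK cell markers, was 15.0, 20.7 and 19.7 with IgG and 19.8, 24.4 and 19.96 with anti-PD-1. The highest tumor was 1.62 times the lowest on this measure, against 3.56 times for Il1a itself, and this was the narrowest of the spans of Il1a over the 12 marker lists. Il1rn, by contrast, spanned 9.10 times between tumors and at least 5.03 times relative to each of the 12 lists. These spans were looked at after the values were seen and carry no test. For Il1a both parts of the ratio were low. Of the 10 T and NK cell markers 9 were under a mean of 0.5 FPKM, and their sum lay between 1.80 and 6.74 FPKM. Il1a itself rests on 17 to 66 reads.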
